A study of Mus musculus with 2 samples.

Results

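Mir203 and Mir205 are a pair of microRNA (miRNA) genes that mark stratified squamous epithelium, and they were followed here in small RNA libraries of the embryonic mouse stomach. They were taken by name, and are 2 of the 1973 genes in the count tables. The study profiled RNA below 30 nucleotides from stomach of B6NCrl embryos at embryonic day 16.5, pooled from males and females and labelled healthy, with no treatment or altered allele in the labels. It held 1 group of 2 biological replicates, of which replicate 2 came from 41 embryos, while the labels give no number for replicate 1, and both carry the same donor label. With no other tissue, age or treatment, levels could be compared only from gene to gene and from library to library.

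The mouse stomach joins a forestomach, lined by stratified squamous epithelium like that of the oesophagus and skin, to a glandular part lined by columnar epithelium. A miRNA is cut from a hairpin transcript and represses mRNAs that pair with its seed, the short stretch near its 5′ end. In mouse skin, miR-203 accumulates as keratinocytes leave the proliferating basal layer and represses Trp63, the gene of the basal cell factor p63. miR-205 is known from the progenitors of stratified and glandular epithelia, and shares with the miR-200 family the repression of Zeb1 and Zeb2, factors that switch off epithelial genes. In pooled whole tissue, fewer cells of a type and less RNA per cell cannot be told apart, and no count separates forestomach from other stratified epithelium carried along.

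The mature arms are shown because the members mark the same epithelium with different seeds. Capitals mark the seed, bases 2 to 8 from the 5′ end, and the sequences are RefSeq's on build GRCm38.p6.
mmu-miR-203-3p: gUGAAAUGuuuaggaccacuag
mmu-miR-203-5p: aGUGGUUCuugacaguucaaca
mmu-miR-205-5p: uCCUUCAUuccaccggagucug
mmu-miR-205-3p: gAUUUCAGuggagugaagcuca
All 4 arms are 22 bases long and their 4 seeds differ. None of the other miRNA genes in the RefSeq table carried any of these seeds at bases 2 to 8 of a mature arm, so neither member had a seed relative there. GC content was 40.9% for both miR-203 arms, against 54.5% for miR-205-5p and 45.5% for miR-205-3p.

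The hairpins are shown because the deposited counts belong to them as a whole, so reads of either arm are added together. Capitals mark the mature arms.
Mir203: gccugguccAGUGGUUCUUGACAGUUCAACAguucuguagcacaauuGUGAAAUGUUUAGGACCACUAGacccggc
Mir205: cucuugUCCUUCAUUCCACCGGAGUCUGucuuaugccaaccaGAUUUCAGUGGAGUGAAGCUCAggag
Mir203 lies at chr12:112130880-112130955 on the plus strand (GRCm38, the assembly that mm10 names), outside any gene of the GENCODE M21 annotation on either strand. The nearest protein-coding gene, Aspg, an asparaginase, ends 3321 bases before it on the same strand. Mir205 lies at chr1:193507463-193507530 on the minus strand, in an exon of the single annotated transcript of the long noncoding RNA gene 4631405K08Rik, called Mir205hg in RefSeq. Its nearest protein-coding gene, the kinase gene Camk1g, is 137165 bases away. In GENCODE M21 the nearest other miRNA gene to Mir203 was Mir3073a, 21558 bases away, with 5 and 4 reads in replicates 1 and 2. For Mir205 it was Mir3962, 1314471 bases away, with 59 and 65 reads. RefSeq adds a miRNA gene within the Mir203 hairpin on the opposite strand, Gm51289, described further below.

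Neither hairpin shared a run of 20 bases with any of the other 2201 miRNA transcripts of GENCODE M21. The rest of the genome was not searched. In a separate check among RefSeq hairpins, 253 genes had a hairpin and a mean level of at least 10 counts-per-million (CPM, of the reads counted in the sense direction). Of these, 22.5% shared such a run with another RefSeq hairpin. This matters for the values, because the deposited counts keep multiply placed reads in a separate total, and such reads are taken to be in no gene count. Multiply placed reads formed 25.1% of the replicate 1 library and 25.2% of the replicate 2 library. Genes that share a run may thus be counted too low, while the members share none with the miRNA transcripts searched. The places, shares and folds over the median given below leave these reads out, so those of the members may be too high. Hairpin length was 76 bases for Mir203 and 68 for Mir205, against a median of 79 over 1005 RefSeq hairpins. Hairpin GC content was 48.7% and 50.0%, against a median of 51.7%.

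The libraries held 15746238 reads in replicate 1 and 15958656 in replicate 2, of which 7734578 and 7983714 were assigned to genes in the sense direction. Levels are given as CPM of those sense reads. A read of this size class covers a whole mature miRNA, so CPM was compared between hairpins without division by length. Places, shares and ratios between genes are those of reads. Whether different sequences give equal reads for equal RNA was not tested. The most abundant gene was the smooth muscle gene Mir143 at 195813 ± 1350 CPM (SD, n = 2), and the hepatocyte gene Mir122 stood at 1516 ± 432 CPM. No p-value was computed between the libraries, since each side has 1 library. Intervals below cover counting error only, without the spread among animals. As the labels give 1 donor for both libraries and do not say how the pools were formed, the SDs and the coefficient of variation below may be partly technical.

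Mir203, the gene of the suprabasal keratinocyte miRNA, had 133033 sense reads in replicate 1 and 218299 in replicate 2. These equal 17199.8 CPM in replicate 1 (exact Clopper-Pearson 95% interval 17108 to 17292) and 27343 CPM in replicate 2 (27230.0 to 27456). The library intervals did not overlap, and replicate 2 was the higher. The mean was 22271 ± 7172 CPM (SD, n = 2), an SD of 32.2% of the mean. With multiply placed reads left out, Mir203 was the 10th most abundant gene by the mean of the libraries, 13th in replicate 1 and 9th in replicate 2.

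Mir205, the gene of the progenitor-associated miRNA, had 87855 sense reads in replicate 1 and 86948 in replicate 2. These equal 11359 CPM (11284 to 11434) and 10891 CPM (10819 to 10963), a mean of 11125 ± 331 CPM (SD, n = 2). The spread was 2.98% of the mean, so Mir205 was close to even between the same libraries in which Mir203 was not. By the same counts Mir205 was the 22nd most abundant gene by the mean, 21st in replicate 1 and 23rd in replicate 2. Against the median of 309 CPM over the 289 genes with a mean of at least 10 CPM, Mir203 stood 72.1-fold and Mir205 36.01-fold higher.

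**Figure D1:**
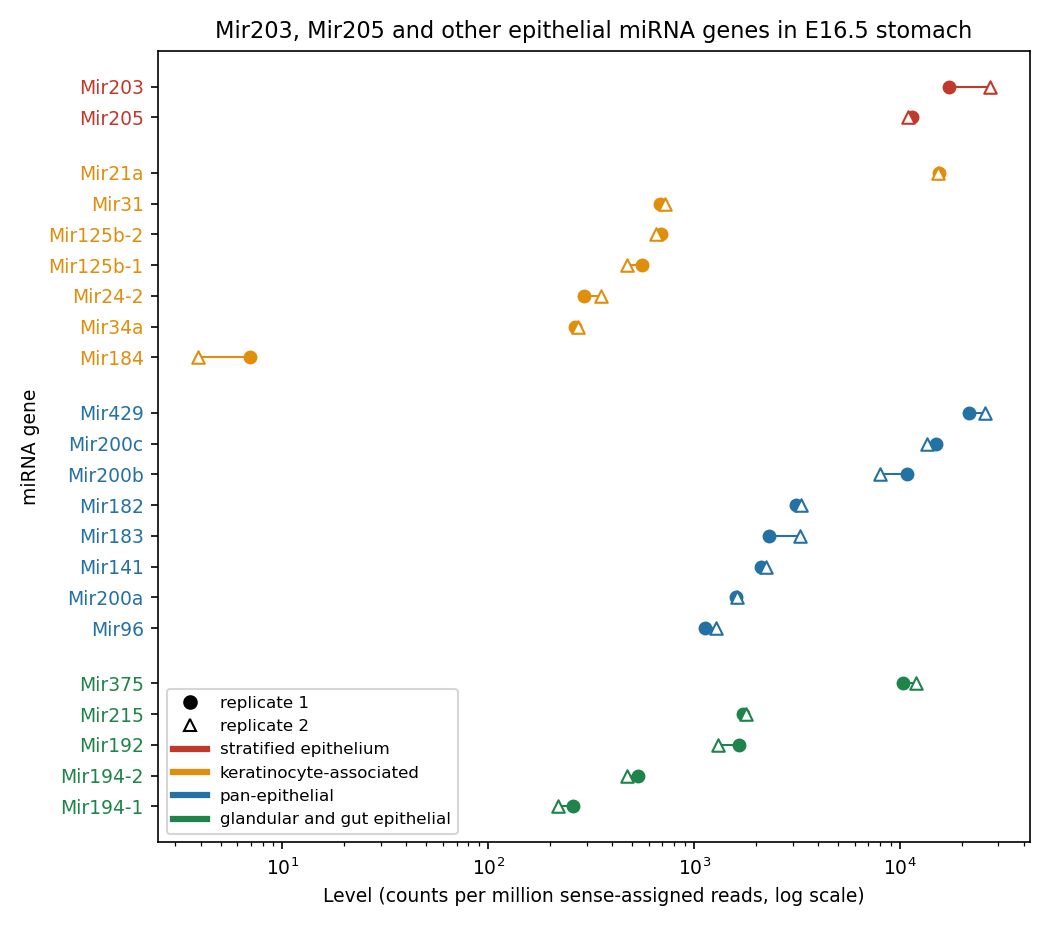
Level of Mir203, Mir205 and the genes of 3 other epithelial lists on a log axis in CPM, with replicate 1 as filled circles and replicate 2 as open triangles joined by a line. Mir203 spreads between 17199.8 and 27343 CPM, while the marks of Mir205 at 11359 and 10891 CPM nearly coincide.

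Mir203 exceeded Mir205 in both libraries, and by how much differed between them. Mir203 gave 1.51 reads per Mir205 read in replicate 1 (95% interval 1.501 to 1.527) and 2.51 in replicate 2 (2.49 to 2.53), a mean ratio of 2.01 ± 0.705 (SD, n = 2). Mir203 was therefore 60.2% of the pair's reads in replicate 1 and 71.5% in replicate 2. This ratio does not depend on any scaling between libraries. Together the members took 2.86% of the sense reads in replicate 1 and 3.82% in replicate 2, or 3.34% ± 0.684 (SD, n = 2).

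The order of Mir203 among its neighbours was loose. A further 9 genes, between the 7th and the 16th place, had means within 1 SD of Mir203. The endothelial gene Mir126a at 29039 ± 14.7 CPM and Mir26b at 28065 ± 3621 CPM were above Mir203 in both libraries, but the gap between the means was smaller than the SD of Mir203. Mir429 of the miR-200 family at 23612 ± 3020 CPM, Mir130a at 21971 ± 1285 CPM, Mir23b at 21588 ± 5120 CPM and Mir322 at 18242 ± 1170 CPM each changed sides with Mir203 between the libraries. Mir23b shares a 20-base run with another hairpin, so its level is uncertain.

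The place of Mir205 was tighter. Mir375, a miRNA gene of endocrine cells, had a mean within 1 SD of it, at 11125 ± 1179 CPM, and was below Mir205 in replicate 1 (10291 CPM) and above it in replicate 2 (11959 CPM). Mir99b at 12690 ± 805 CPM and Mir411 at 12259 ± 563 CPM exceeded Mir205 in both libraries, with gaps between the means larger than the SD of either gene compared. Mir411 also shares a 20-base run with another hairpin, and Mir99b has no RefSeq hairpin, so it could not be checked. Mirlet7d at 13201 ± 4063 CPM changed sides, and Mir200b at 9392 ± 1997 CPM was lower in both libraries, with a gap between the means smaller than its own SD. Mir127, an imprinted gene at 8433 ± 717 CPM, was lower in both, with a gap between the means larger than either SD.

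**Figure D2:**
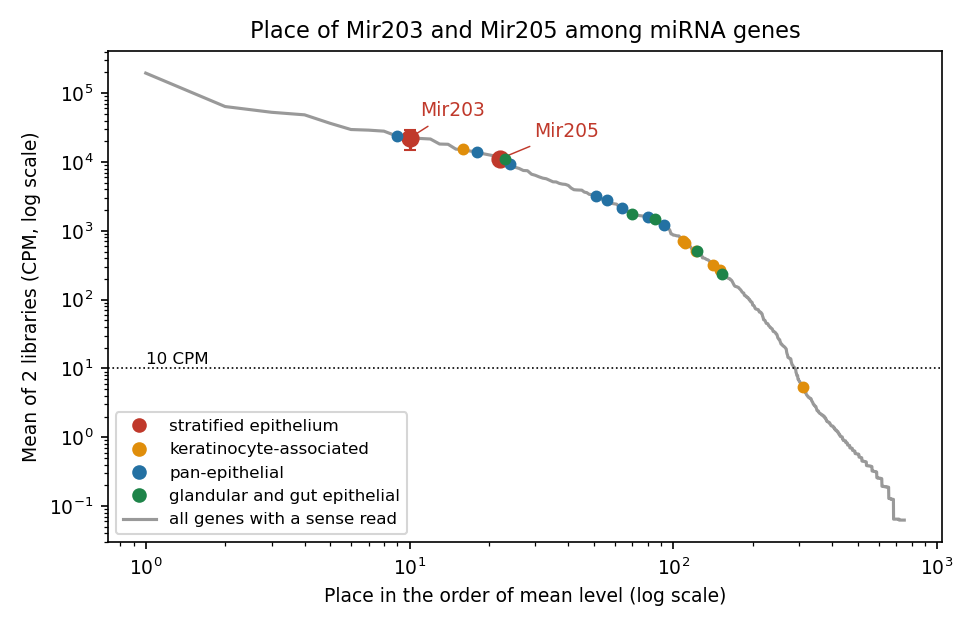
Mean CPM of the 2 libraries for the 751 genes with a sense read against their place in the order, both axes logarithmic, with error bars of 1 SD (n = 2) on the members. Mir203 and Mir205 stand at places 10 and 22, far above the dotted line at 10 CPM.

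Among epithelial miRNA genes, Mir203 and Mir205 were set beside lists for all epithelia and for glandular or gut epithelium. The pan-epithelial list holds the miR-200 family, which maintains the epithelial state, and the cluster of Mir183, Mir96 and Mir182, known from sensory and other epithelia. Its 8 genes together took 5.74% of the sense reads in replicate 1 and 5.89% in replicate 2, more than the 2 members in both libraries. The glandular and gut list of Mir192, Mir194-1, Mir194-2, Mir215 and Mir375 took 1.45% and 1.57%, less than the members in both. Most of that list's reads came from Mir375, which is also on the endocrine list. It gave 79594 of 111858 reads in replicate 1 and 95473 of 125605 in replicate 2. Of these 13 genes, only Mir429 had a higher mean than Mir203, and only Mir429 and Mir200c, at 14209 ± 993 CPM, had a higher mean than Mir205. Mir192, Mir215 and the Mir194 genes, typical of intestinal epithelium, ranged from 237 CPM for Mir194-1 to 1755 CPM for Mir215. The Mir194 genes share a 20-base run with another hairpin and are uncertain.

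Within the reads of these 15 epithelial genes, the members made up 28.4% in replicate 1 (28.3% to 28.5%) and 33.9% in replicate 2 (33.8% to 34.0%). Mir203 alone was 17.1% in replicate 1 and 24.2% in replicate 2. Mir205 was 11.3% in replicate 1 and 9.65% in replicate 2, a share whose total includes Mir203, while its own reads were nearly equal. The 14 genes other than Mir203, Mir205 among them, took 8.33% of all sense reads in replicate 1 and 8.55% in replicate 2. Per read of the 13 genes other than both members, Mir203 gave 0.239 reads in replicate 1 and 0.366 in replicate 2, and Mir205 gave 0.158 and 0.146.

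**Figure D3:**
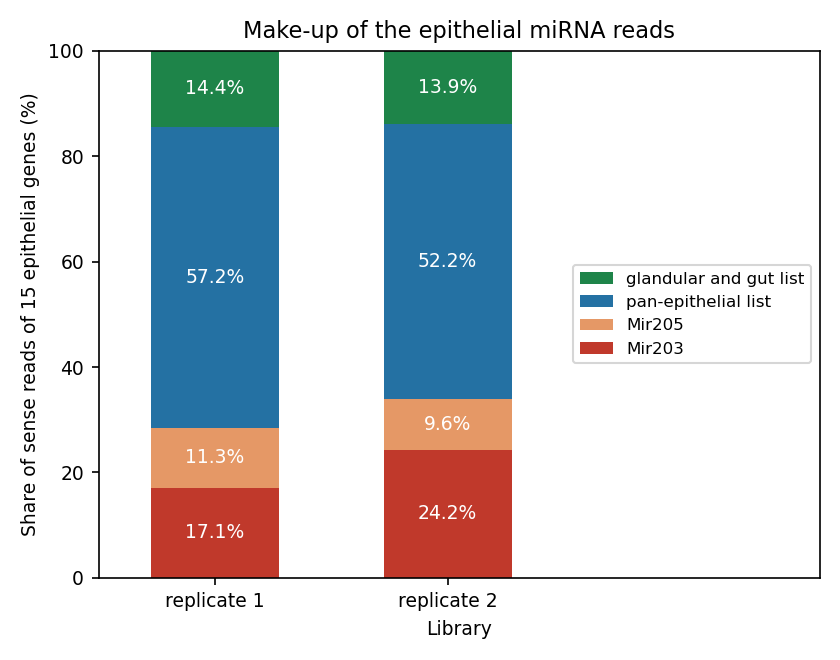
Share of the sense reads of 15 epithelial miRNA genes, in percent, taken by Mir203, Mir205 and the 2 other lists in each library. The Mir203 block is 17.1% in replicate 1 and 24.2% in replicate 2, and the Mir205 block 11.3% and 9.65%.

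Genes known from keratinocytes were a further list set beside the members, though whole-tissue counts do not say which cells their reads came from. Of the 8 on this list, Mir24-1 was not analysed here, and 6 of the other 7 reached a mean of 10 CPM. Mir21a, a growth-associated miRNA gene active in many cell types, was by far the highest at 15325 ± 113 CPM, between Mir203 and Mir205. Mir31, which promotes keratinocyte growth, stood at 704 ± 26.4 CPM and Mir34a, a p53 target, at 267 ± 5.61 CPM. Mir125b-1 and Mir125b-2, a pair of genes for a miRNA of skin stem cells, stood at 513 ± 58.7 and 671 ± 26.8 CPM. Both levels are uncertain, since reads of a miRNA with a pair of genes may be multiply placed. Mir125b-2 has no RefSeq hairpin, so a run shared by the pair could not be checked. Mir24-2 stood at 323 ± 44.5 CPM and shares a 20-base run with another hairpin. Mir184, known from cornea and skin, had 54 reads in replicate 1 and 31 in replicate 2, or 5.43 ± 2.19 CPM.

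The libraries were then compared gene by gene after scaling by trimmed mean of M values (TMM), as the log2 ratio of replicate 1 over replicate 2 with 0.5 added to each count. A gene was called where this ratio passed 1.5-fold. Mir203 had a log2 ratio of -0.85 (counting interval -0.86 to -0.84), so it was 1.80-fold lower in replicate 1. Mir205 had a log2 ratio of -0.12 (-0.14 to -0.11), 1.09-fold lower in replicate 1, and was not called. Scaled by total sense reads, Mir203 was 1.59-fold lower in replicate 1, and Mir205 was 1.04-fold higher there (log2 ratio 0.061), so the direction of Mir205 depends on the scaling.

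Over all 289 genes with a mean of at least 10 CPM, 58 were called, 20.1%, of which 44 were higher and 14 lower in replicate 1 (15.2% and 4.84% of the genes tested). Total-read scaling gave 62 higher and 5 lower, as it moved the median log2 ratio of these genes to 0.21, against 0.02 with TMM. Relative to that median, Mir203 stood at -0.87 and Mir205 at -0.15 under either scaling, which is so by construction, as scaling shifts all genes alike. Of the 289 genes, 2 had a lower ratio than Mir203. In either direction, 31 genes, 10.7%, were farther apart than Mir203, and 70.2% were farther apart than Mir205. Over these genes edgeR put the biological coefficient of variation at 0.294.

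Among the most abundant genes no ratio exceeded the 1.80-fold of Mir203. Of the 36 genes with a mean of at least 5000 CPM, 5 were called, 13.9%, all lower in replicate 1: Mirlet7g, Mir203, Mir23b, Mir23a and Mirlet7d. These 36 genes had a median TMM log2 ratio of -0.17, below the 0.02 over all genes tested. With TMM 28 of the 36 were below 0, and with total-read scaling 17. Mir205 at -0.12 was above that median, with 19 of the 36 lower than it. Mir203 was the farthest apart of the 36 with TMM, total-read and DESeq2 scaling, whereas 25 of the 36 were farther apart than Mir205 with TMM. With total-read scaling 2 of the 36 were past 1.5-fold, so the count of 5 rests on the scaling.

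**Figure D4:**
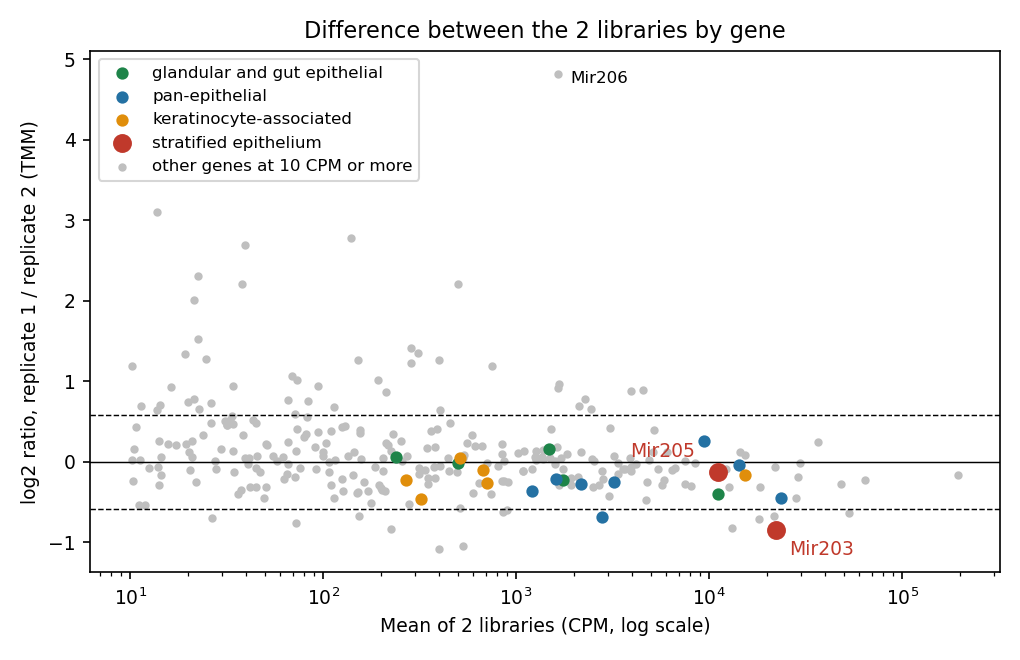
log2 ratio of replicate 1 over replicate 2 after TMM scaling against mean CPM on a log axis, for 289 genes at 10 CPM or more, with dashed lines at 1.5-fold. Mir203 lies below the lower line at -0.85 and Mir205 near 0 at -0.12, while the muscle gene Mir206 lies at 4.81.

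The other epithelial genes were mostly within 1.5-fold. Of the 8 pan-epithelial genes 1 was called, Mir183, lower in replicate 1 at a log2 ratio of -0.68, with 17821 reads there and 25985 in replicate 2. The list's median log2 ratio was -0.26, from -0.68 to 0.25. None of the 5 glandular and gut genes was called, with ratios from -0.40 for Mir375 to 0.16 for Mir192 and a median of -0.01. None of the 6 keratinocyte-associated genes at 10 CPM or more was called, with ratios from -0.46 to 0.05 and a median of -0.20. Their shares past 1.5-fold lie below the 20.1% over all genes tested, but the counts are too small to set apart from it. None of these genes had a ratio as low as that of Mir203, below which only 2 of all 289 genes tested lay.

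By closeness of the TMM log2 ratio, among the 97 genes with a mean of at least 1000 CPM, the genes most like Mir203 were Mirlet7d (-0.82), Mir23a (-0.70), Mir183 (-0.68), Mir23b (-0.67) and Mirlet7g (-0.63). Those most like Mir205 were Mir18, Mir467c, Mir1193, Mirlet7b and Mir93, all between -0.12 and -0.10. The likeness rests on 1 ratio from 2 libraries. Mir23a and Mir23b share a 20-base run with another hairpin, and Mir467c has no RefSeq hairpin, so it could not be checked.

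Markers of other cell types were compared between the same libraries, where 15.2% of all genes tested were called as higher in replicate 1. Of the striated muscle list of 9 genes, 8 have a row, and 3 of the 4 at 10 CPM or more were called, all higher in replicate 1. Mir133a-1 and Mir133a-2 were at 0 in both libraries. Neither has a RefSeq hairpin, so a shared run could not be checked, and the 0 need not mean absence. The summed share of the list was 0.336% in replicate 1 and 0.0202% in replicate 2. Genes called as higher in replicate 1 were also 1 of 2 smooth muscle genes, 2 of 4 mesenchymal genes, 1 of 4 endocrine genes and 1 of 3 erythroid genes, counts too small to set apart from that share. The called mesenchymal genes Mir199a-1 and Mir199b and the called endocrine gene Mir7-2 share a 20-base run with another hairpin and are uncertain. None of the 3 leukocyte genes tested was called, nor were the endothelial gene Mir126a, the hepatocyte gene Mir122 and the neuronal gene Mir137. The part of these differences in the ratio of Mir203 was not tested.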

How the data were processed

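Small RNA of 2 stomach pools was measured. The authors deposited, for each library, raw read counts per gene in 3 columns (strand ignored, sense, opposite) and 4 summary totals. Per the file headers the build is mm10 and the annotation GENCODE M4. For the aligner, counter and trimming, names and versions were not given in the sources used here. The summary totals name no gene, made up 49.2% and 48.5% of the reads, and stayed out of library sizes.

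Identifiers were matched to GENCODE M21 (GRCm38), which gave symbols for 1894 of 1973 genes. Sense counts were used as CPM, with exact Clopper-Pearson 95% intervals. TMM factors came from edgeR 4.0.16 and alternative size factors from DESeq2 1.42.0, both over genes with a mean of at least 10 CPM, under R 4.3.3. The floor of 3 counts equals 0.388 and 0.376 CPM. The computation of the ratios was checked on simulated counts with known changes. Python 3.11.15, numpy 2.4.6, pandas 2.3.3, scipy 1.17.1 and matplotlib 3.10.9 were used.

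The members, lists and rules were chosen with earlier results of these data known. Named were the members, list genes, the 3 genes on either side of each member by level, the 5 closest in ratio among genes at 1000 CPM or more, called genes at 5000 CPM or more, and miRNA genes that overlap a member or share its seed; Mir143 and Mir206 were named after their values were seen. Alternatives changed strand, denominator, scaling, pseudocount, low-count filter, fold and library.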

Additional observations from a re-analysis of the deposited data

Results flagged for a closer look

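Reads on the strand opposite to Mir203, which the levels above leave out, were above the floor of 3 counts in both libraries. There were 61 such reads in replicate 1, or 0.0458% of the reads at the locus (95% limits 0.0351% and 0.0589%, exact Clopper-Pearson), and 43 in replicate 2, or 0.0197% (0.0143% to 0.0265%). They equal 6.64 ± 1.77 CPM (SD, n = 2). The share was higher in replicate 1, and these intervals did not overlap. Mir205 had 0 opposite reads in both libraries. Taking 3 counts as the limit that a count of 0 allows, this is up to 0.00341% of its locus in replicate 1 and 0.00345% in replicate 2, and the exact two-sided 95% upper limits were 0.00420% and 0.00424%, for counting error only.

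Among the 100 most abundant genes, 19 had any opposite read and 9 had some in both libraries. Mir203 had the most, 104 of 422, and was 4th by share of the locus. RefSeq annotates a miRNA gene on that strand, Gm51289 (mir-203b), at chr12:112130887-112130946 on the minus strand. Its arms are shown because each lies opposite an arm of Mir203 with 20 overlapping bases, and capitals mark the seed.
mmu-miR-203b-3p: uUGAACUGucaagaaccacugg
mmu-miR-203b-5p: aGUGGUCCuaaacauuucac
Their seeds differ from those of Mir203. The deposited counts do not say which bases the opposite reads cover.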

How the results depend on the processing

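The Mir203 to Mir205 read ratio was 1.51 and 2.51 with either library left out, which with 2 libraries lies within the SD by construction. It moved by less than its SD with strand ignored, with the reads of both libraries added up, and per hairpin base (1.80), an alternative chosen after seeing the data. These outcomes were set in advance too. Opposite reads were few, a ratio of added reads lies between those of the libraries, and hairpin length is a constant factor. With all reads of the file as the denominator the levels were 11064 CPM for Mir203 and 5514 CPM for Mir205, and their summed share 1.66%, because the total is larger. Without Mir143 in the denominator Mir205 stood at 13834 CPM and the share at 4.15%. With strand ignored Mir205 stood at 10781 CPM, as opposite-strand reads enter the total. With either library left out, levels ranged from 17199.8 to 27343 CPM for Mir203 and from 10891 to 11359 CPM for Mir205, and the share from 2.86% to 3.82%. The log2 ratio between libraries was -0.67 for Mir203 and 0.061 for Mir205 with total-read scaling, and -0.88 and -0.15 with DESeq2 size factors. Mir203 stayed past 1.5-fold and Mir205 within it under all 4 alternatives run. Genes past the fold numbered 384 of 751 without a low-count filter, 32 of 193 at 100 CPM or more and 23 of 289 at 2-fold, where Mir203 was not among them. No paired analysis was possible because the series has 1 group. Depth did not limit the members, whose counting intervals were far narrower than the spread between libraries for Mir203.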
